A study of Mus musculus with 20 samples.

Results

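The heat shock genes followed across the 20 libraries of the series were Hspa1a, Hspa1b, Hspa8, Hsph1, Dnajb1, Hsp90aa1, Hspe1, Hspd1, Hsf1 and Bag3, which are 10 of the 21963 entries of the count table and were taken by symbol. They were chosen by their measured values in these libraries, Hspa1b being known to stand lower with BAPTA-AM, so their values in that comparison are given as a description without a test. Other comparisons that use the zymosan-treated WT libraries, with or without BAPTA-AM, share data with that choice, so their p-values are not independent of it. The libraries held RNA of bone marrow-derived macrophages from mice of 15 to 25 weeks, differentiated in L929-conditioned medium. There were 4 untreated WT, 5 WT given zymosan (2 particles per cell, 3 h), 4 WT loaded with 10 µM BAPTA-AM and given the same zymosan, 4 untreated Mcu-/- and 3 Mcu-/- given zymosan. Zymosan is a yeast cell wall preparation sensed by dectin-1 and TLR2, BAPTA-AM is a cell-permeant Ca2+ chelator, and Mcu encodes the pore of the mitochondrial Ca2+ uniporter. The Mcu-/- mice carried a floxed Mcu and Cx3cr1-cre, a driver of myeloid cells. Whether the WT mice carried Cre is not given in the sources used here, and there was no BAPTA-AM group without zymosan and none in Mcu-/- macrophages.

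Heat shock proteins are chaperones that bind unfolded or newly made proteins. HSP70 proteins (Hspa1a, Hspa1b, Hspa8) hold exposed peptide stretches in a cycle of ATP hydrolysis that J-domain proteins such as Dnajb1 start and that nucleotide exchange factors such as Hsph1 and Bag3 reset. HSP90 (Hsp90aa1) acts later on kinases and receptors, and Hspd1 and Hspe1 form the chaperonin of the mitochondrial matrix. HSF1 is the transcription factor of the heat shock response: freed from chaperones and trimerized, it binds heat shock elements, repeats of a GAA unit in alternating orientation, and the inducible HSP70 genes are its textbook targets. Hspa8 is the constitutive HSP70 of the cytosol, abundant in unstressed cells.

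Total counts were 14.4 to 24 M per library, and the group medians lay between 19.1 and 22.2 M. Normalized counts of Mcu lay between 126 and 197 in the 13 libraries of WT mice and between 54.2 and 83.4 in the 7 of Mcu-/- mice, so the deletion left reads on the gene. All 8 macrophage markers (Adgre1, Csf1r, Cd68 and others) were detected in every group, with a summed level of 8560 to 16400 CPM, while markers of other cells summed to at most 1.59 CPM for T cells, 5.01 for neutrophils, 11.5 for dendritic cells, 52.3 for fibroblasts and 55.4 for B cells, the latter mostly Cd79b. Untreated Mcu-/- replicate 4 stood apart. Its counts differed from those of its 3 fellow replicates with a chi-square of 217 to 225 averaged over genes, against 1.61 to 6.53 in the other 28 replicate pairs, and the biological coefficient of variation of the fit was 12.4% with it and 3.56% without it. Values and counts of the Mcu-/- comparisons that change without that library are given both ways. The labels call the libraries biological replicates without naming separate animals or cultures, so p-values measure only the spread between these libraries.

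Hspa1a and Hspa1b lie next to each other on chromosome 17 of mm10, both on the minus strand and both with a single exon: Hspa1b (ENSMUSG00000090877) from 34956436 to 34959238 and Hspa1a (ENSMUSG00000091971) from 34969190 to 34972156, with 9951 bases between them. The transcripts are near copies. Of all stretches of 100 bases, 47.1% in the Hspa1a transcript and 49.9% in the Hspa1b transcript occur in the other one too. How the counting treated reads that fit both is not given in the sources used here, so the split of counts between the genes is uncertain, and their sum is reported beside each. Their upstream DNA is shown because it, too, is shared: 247 of the 250 bases before the start site were identical (98.8%). The stretch before Hspa1b (RefSeq, GRCm38, chr17:34959239-34959488, minus strand) reads as follows, with adjoining exact units of the heat shock element in capitals.
Hspa1b: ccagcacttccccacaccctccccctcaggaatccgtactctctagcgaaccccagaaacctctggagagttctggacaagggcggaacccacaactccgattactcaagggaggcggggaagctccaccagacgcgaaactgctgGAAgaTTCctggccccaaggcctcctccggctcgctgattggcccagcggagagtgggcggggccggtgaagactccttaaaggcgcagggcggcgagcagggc
Counted from 1 at the 5′ end of this stretch, the changes from Hspa1b to Hspa1a are T44C, C47T and G249T. None touches the element, which starts 104 bases before either start site.

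Promoter windows of 300 bases (250 before and 50 after the start site) were found in RefSeq for 7 of the 10 genes, and for Hspa8, Hsp90aa1 and Hsf1 none was found. The letters searched on both strands were GAANNTTC and TTCNNGAA, which are 2 units of the heat shock element and overlap where a further unit follows. Only exact letters were searched, so units with a mismatch, as may lie beside the element of Hspa1a and Hspa1b, were not counted. They occurred in 15.1% of all 32851 windows and in at least 1 window of 6 of the 7 genes. An element of 3 or more units was in 0.6% of all windows and in those of Hspe1, Hspd1 and Hsph1. Hspe1 and Hspd1 are divergent neighbours on chromosome 1 and share 1 element of 4 units, which starts 89 bases before Hspe1 and lies 144 bases before the inner start of Hspd1. Hsph1 has the 2-unit letters 33 bases before the upstream one of its 2 starts and a 3-unit element after it. Both are shown, 30 bases each, for comparison with the 2-unit letters of Hspa1b. In the GENCODE M21 annotation the Hspe1 stretch overlaps an exon of Hspd1, and the Hsph1 stretch an exon of Hsph1. The window of the outer start of Hspd1 has no match.
Hspe1 (chr1:55088053-55088082, plus strand): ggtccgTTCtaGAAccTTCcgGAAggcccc
Hsph1 (chr5:149636352-149636381, minus strand): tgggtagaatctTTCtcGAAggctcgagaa
Bag3 has the letters only at base 43 after its start, and neither Dnajb1 window has them. A match is a description of these letters and not evidence of binding.

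**Figure D1:**
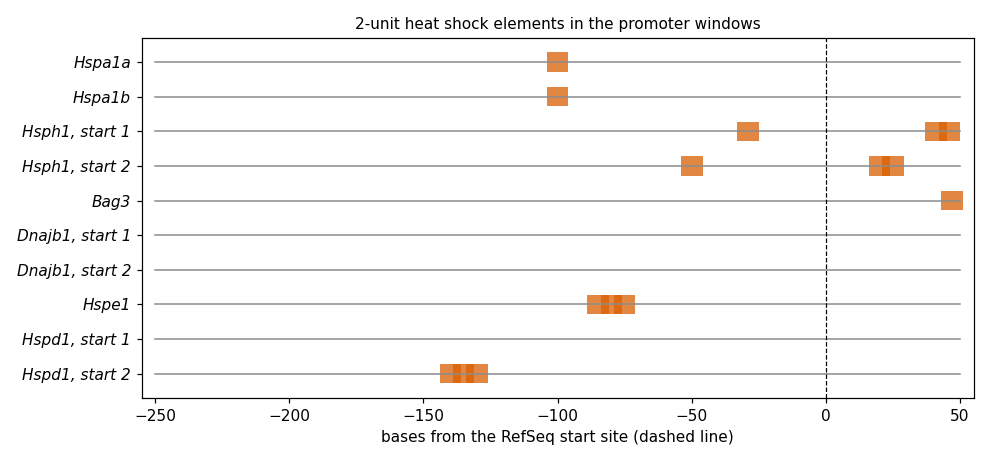
Positions of 2-unit heat shock elements (orange boxes, 8 bases each, overlapping where a further unit follows) in the promoter windows of 7 genes, in bases from the RefSeq start site (dashed line). Hspa1a and Hspa1b have 1 box each at 104 bases before the start, Hspe1 and the inner start of Hspd1 have 3 overlapping boxes, and the 2 Dnajb1 windows have none.

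The other genes lie on separate chromosomes, apart from the chaperonin pair. On mm10, chromosome 1 carries Hspd1 (ENSMUSG00000025980, 55077835 to 55088243, minus strand) and Hspe1 (ENSMUSG00000073676, 55088132 to 55091307, plus strand). Hspa8 (ENSMUSG00000015656) is on chromosome 9 from 40800984 to 40810087, Dnajb1 (ENSMUSG00000005483) on chromosome 8 from 83608193 to 83612653 and Hsph1 (ENSMUSG00000029657) on chromosome 5 from 149614287 to 149636376. Bag3 (ENSMUSG00000030847) is on chromosome 7 from 128523616 to 128546981, Hsp90aa1 (ENSMUSG00000021270) on chromosome 12 from 110690605 to 110702728 and Hsf1 (ENSMUSG00000022556) on chromosome 15 from 76477422 to 76501913.

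In untreated WT macrophages the genes spanned a wide range of levels. Per kb of exon, Hspa8 had 8949 ± 156 normalized counts (SD, n = 4), followed by Hsp90aa1 with 2049 ± 63.9, Hspd1 with 1499 ± 55.6, Hspe1 with 1068 ± 80.6, Bag3 with 446 ± 15.5 and Dnajb1 with 175 ± 3.93. Hsph1 had 86.3 ± 6.50 per kb, Hsf1 70.3 ± 4.08, Hspa1b 18.9 ± 0.925 and Hspa1a 11.1 ± 2.16. The libraries of neighbours in this order did not overlap. With zymosan the order of the abundant chaperones was unchanged, but Hspa1b reached 324 ± 13.0 per kb (n = 5), level with Dnajb1 at 307 ± 12.6, whose libraries overlapped it. In Mcu-/- macrophages with zymosan Hspa1b stood at 986 ± 37.3 per kb (n = 3), within the spread of Hspe1 at 1029 ± 71.1.

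The inducible HSP70 genes rose most of the 10 genes with zymosan in WT macrophages. Normalized counts of Hspa1b were 51.9, 54.2, 55.6 and 49.7 in the untreated libraries and 846, 935, 933, 917 and 904 in those with zymosan. All zymosan libraries were far above all untreated ones, and Hspa1b was 17.2-fold higher by the group means (log2 fold change 4.09, SE 0.24, edgeR adjusted p = 1.45e-11). Hspa1a, with only 24 to 48 raw reads per untreated library, went from 42.2, 31.5, 30.0 and 27.8 to 446, 447, 416, 452 and 439 normalized counts. That was 13.4-fold (log2 fold change 3.73, SE 0.32, edgeR adjusted p = 3.75e-09). Their sum rose from 85.7 ± 6.76 (n = 4) to 1347 ± 34.3 (n = 5), 15.7-fold. The exact two-sided permutation test of the sum gave p = 0.0159, the smallest value that 5 against 4 libraries allow.

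The other members of the HSP70 cycle moved less, and not all upward. Hspa8 had 39457, 38350, 38254 and 37903 normalized counts untreated and 52970, 53175, 53156, 53640 and 53383 with zymosan. Hspa8 rose 1.38-fold (log2 fold change 0.47, SE 0.09, edgeR adjusted p = 9.11e-05), but not on the scale of library totals (−0.02). Per kb it went from 8949 to 12384, so even this small change was, in normalized counts, larger than that of Hspa1a and Hspa1b. Dnajb1, the J-protein partner, rose from 560 ± 12.6 (n = 4) to 982 ± 40.3 (n = 5), with a log2 change of 0.81 (SE 0.08, edgeR adjusted p = 2.25e-08). Hsph1 (HSP110), an exchange factor for HSP70, fell: it had 647, 678, 618 and 567 normalized counts untreated and 353, 352, 322, 350 and 337 with zymosan, without overlap. The log2 fold change of Hsph1 was −0.87 (SE 0.13, edgeR adjusted p = 6.28e-06). Bag3, an exchange factor that links HSP70 to autophagy, had 1088 to 1174 normalized counts untreated and 981 to 1109 with zymosan, which overlap (log2 fold change −0.12, SE 0.13, edgeR adjusted p = 0.412, and 0.00708 without untreated Mcu-/- replicate 4).

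Hsp90aa1 rose from 8056 ± 251 (n = 4) to 15270 ± 365 (n = 5), with a log2 change of 0.92 (SE 0.06, edgeR adjusted p = 3.04e-11). Of the mitochondrial chaperonin, Hspd1 went from 3778 to 4115 untreated to 4826 to 5167 with zymosan (log2 fold change 0.33, SE 0.05, edgeR adjusted p = 4.74e-06, but −0.16 on library totals). Its partner Hspe1 had 1469 to 1728 and 1641 to 1805, which overlap (log2 fold change 0.14, SE 0.06, edgeR adjusted p = 0.0676). Hspe1 passed without untreated WT replicate 1 (edgeR adjusted p = 0.0214) and without untreated Mcu-/- replicate 4 (edgeR adjusted p = 0.00436). The divergent pair with a shared element therefore had different calls in the main fit, but DESeq2 called Hspe1 higher too (adjusted p = 0.0205). On library totals both were called lower (Hspd1, edgeR adjusted p = 0.000805, and Hspe1 at −0.36, edgeR adjusted p = 0.000172). The difference between the 2 genes was not tested. Hsf1 itself had 482 to 542 normalized counts untreated and 462 to 510 with zymosan (log2 fold change −0.06, SE 0.05, edgeR adjusted p = 0.340), and no change of its mRNA was detected on this scale. On library totals Hsf1 was called lower (−0.55, edgeR adjusted p = 3.45e-08), where the median of all genes was −0.54.

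In all, 6 of the 10 genes rose and 1 fell, against 32.4% and 36.8% of the 11707 genes tested. Without untreated Mcu-/- replicate 4, which lowers the spread of the shared fit, 7 rose and 2 fell against 37.2% and 41.3%. Scaling by library totals lowered the median of all genes to a log2 of −0.54 and turned the calls to 4 higher and 5 lower, against 15.7% and 68.5% of all genes. Hspa1a, Hspa1b, Hsp90aa1 and Dnajb1 still rose on that scale, with log2 fold changes of 3.24, 3.60, 0.43 and 0.32, but Hspa8 (−0.02) and Hspd1 (−0.16) did not. Relative to that median, Hspa8 was at 0.51, Hspd1 at 0.37 and Hsph1 at −0.83. Markers of other cells moved with zymosan in WT: the 5 dendritic cell markers summed to 0.597 to 1.10 CPM untreated and 9.05 to 9.65 CPM with zymosan, mostly Xcr1 and with Cd209a at 0, and the 4 B cell markers to 53.1 to 55.4 and 30.4 to 36.7 CPM, with none at 0. With BAPTA-AM and zymosan these sums were 5.46 to 7.24 and 31.4 to 33.8 CPM. Their part in the results was not tested.

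**Figure D2:**
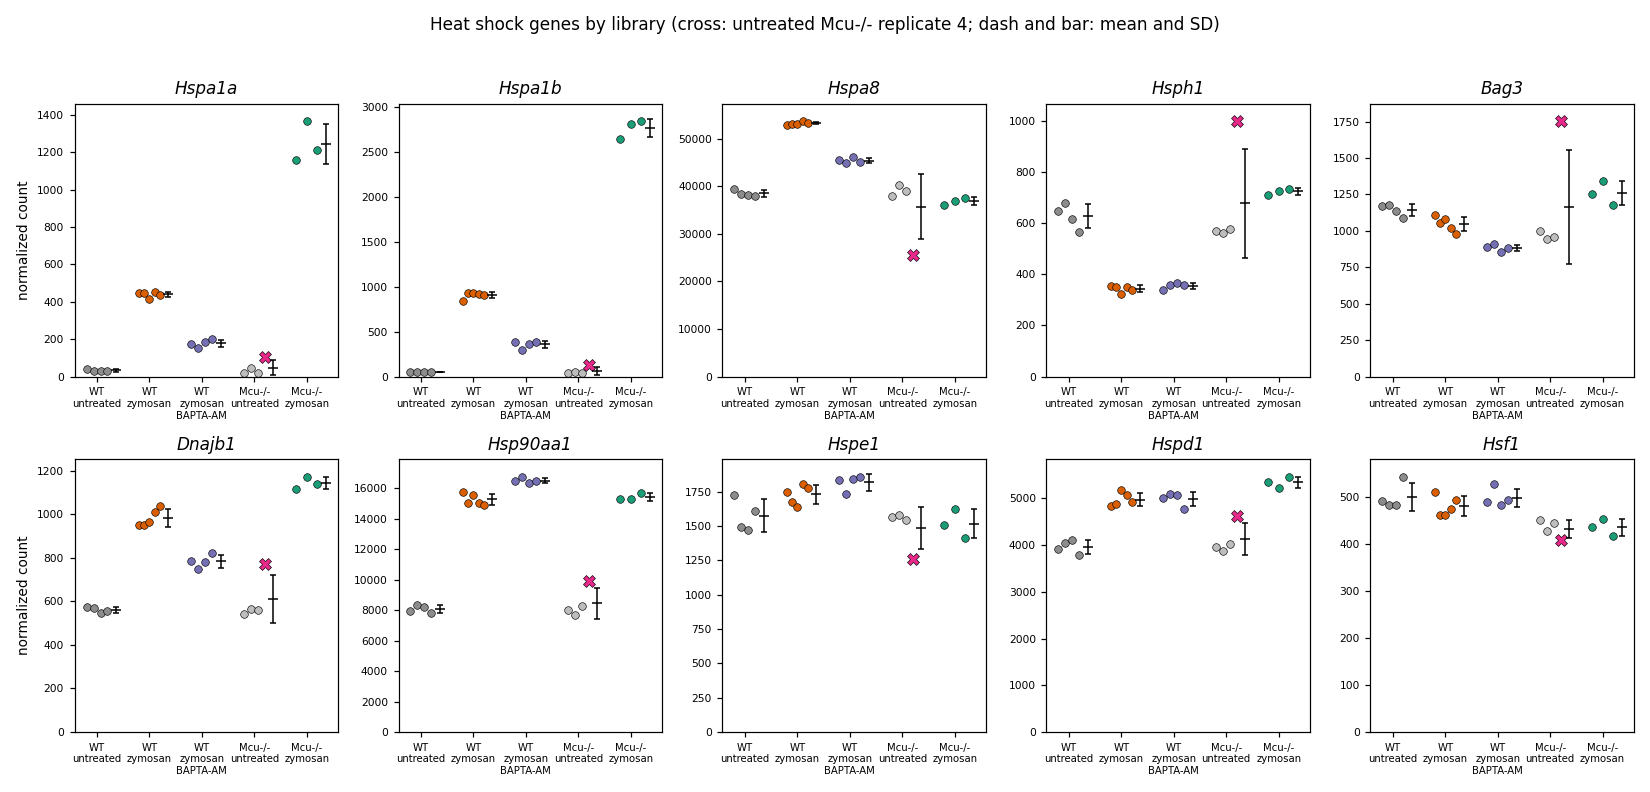
Normalized counts (vertical axes from 0, a separate scale per gene) of the 10 genes in each library of the 5 groups, with the mean and SD of each group beside its points. Hspa1a and Hspa1b are low without zymosan, high with it, lower with BAPTA-AM and highest in Mcu-/- with zymosan, while untreated Mcu-/- replicate 4 (pink cross) departs from its group in most panels.

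With BAPTA-AM the inducible pair stood lower in zymosan-treated WT macrophages, between the unloaded and the untreated level. Hspa1b had 386, 300.4, 358 and 389 normalized counts in the loaded libraries, all below the 846 to 935 of the unloaded ones and above the untreated ones, a log2 fold change of −1.34 (SE 0.20) against unloaded. Hspa1a had 174, 153, 183 and 200.2 (log2 fold change −1.31, SE 0.26). The sum stood at 536 ± 58.3 (n = 4) against 1347 ± 34.3 (n = 5), and 35.7% of the zymosan increment over the untreated mean remained. Against untreated WT macrophages the sum with BAPTA-AM and zymosan was 6.25-fold higher (log2 fold change 2.64, SE 0.28, edgeR adjusted p = 1.04e-07, exact two-sided permutation p = 0.0286, the smallest possible with 4 against 4).

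Dnajb1 and Hspa8 lay between the untreated and the zymosan libraries too, on the TMM scale. Dnajb1 had 783, 748, 780 and 819 normalized counts with BAPTA-AM against 949 to 1038 without it (log2 fold change −0.33, SE 0.08), and 52.7% of its zymosan increment remained. Hspa8 had 45593, 44846, 46156 and 45042 (log2 fold change −0.23, SE 0.09), with 46.8% of the increment left. These shares depend on the scaling. On library totals the log2 fold change of Dnajb1 against untreated was 0.32 with zymosan and 0.05 with BAPTA-AM and zymosan (edgeR adjusted p = 0.502), and that of Hspa8 was −0.02 and −0.19, so there was no increment of Hspa8 on that scale. In normalized counts neither gene overlapped with the unloaded or with the untreated group. Bag3, which had not passed the test with zymosan alone, had 857 to 908 with BAPTA-AM, below all unloaded libraries at 981 to 1109 (log2 fold change −0.24, SE 0.13).

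The remaining genes differed little. Hsp90aa1 had 16311 to 16743 normalized counts with BAPTA-AM, slightly above the 14926 to 15754 of unloaded libraries (log2 fold change 0.11, SE 0.06). Hsph1 (339 to 364 against 322 to 353), Hspd1 (4768 to 5086 against 4826 to 5167), Hspe1 (1730 to 1858 against 1641 to 1805) and Hsf1 (483 to 527 against 462 to 510) all overlapped with the unloaded group. Against untreated WT macrophages, the loaded cells had log2 fold changes of 1.03 (SE 0.06) for Hsp90aa1, 0.33 (SE 0.05) for Hspd1 (−0.10 on library totals) and −0.83 (SE 0.14) for Hsph1. These lie beside 0.92, 0.33 and −0.87 without BAPTA-AM, from comparisons that share the untreated libraries.

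In zymosan-treated Mcu-/- macrophages the inducible pair was about 3 times the WT level. Hspa1b had 2645, 2811 and 2839 normalized counts in the 3 Mcu-/- libraries, 3.05-fold the WT mean (log2 fold change 1.61, SE 0.19, edgeR adjusted p = 1.89e-06). Hspa1a had 1159, 1364 and 1210 (log2 fold change 1.5, SE 0.25, edgeR adjusted p = 7.15e-05). The sum was 4009 ± 189 (n = 3) against 1347 ± 34.3 (n = 5), a 2.98-fold difference, with an exact two-sided permutation p of 0.0357, the smallest that 3 against 5 allow. Without untreated Mcu-/- replicate 4 the log2 fold changes of Hspa1b, Hspa1a and the sum were 1.61 (SE 0.05), 1.5 (SE 0.07) and 1.57 (SE 0.05). This comparison and that with BAPTA-AM share the 5 WT zymosan libraries. The share of Hspa1b in the raw reads of the pair was 65.5 to 69.1% in WT with zymosan, 66.0 to 69.0% with BAPTA-AM and 67.3 to 70.1% in Mcu-/- with zymosan, which are overlapping or adjoining ranges.

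Hsph1 showed the next largest difference. Its normalized counts were 710, 727 and 734 in Mcu-/- and 322 to 353 in WT macrophages, with a log2 change of 1.08 (SE 0.14, edgeR adjusted p = 4.12e-06, and also 1.08, SE 0.06, without untreated Mcu-/- replicate 4). In normalized counts, the gene that fell with zymosan in WT thus lay above the WT untreated libraries (567 to 678) in Mcu-/- with zymosan. On library totals Hsph1 had log2 fold changes of −1.36 with zymosan in WT and 1.03 in Mcu-/- against WT with zymosan. On that scale it thus did not regain the untreated WT level. Mcu-/- with zymosan was not tested against untreated WT. Dnajb1 was slightly higher, with 1117, 1171 and 1136 against 949 to 1038 (log2 fold change 0.22, SE 0.08, edgeR adjusted p = 0.0291). That call was lost on library totals (edgeR adjusted p = 0.0516) and on leaving out WT zymosan replicate 1 or 2 or any of the 3 Mcu-/- libraries (edgeR adjusted p = 0.0507 to 0.0919). Bag3 had 1178 to 1343 against 981 to 1109, without overlap, but did not pass the test (log2 fold change 0.26, SE 0.14, edgeR adjusted p = 0.116), which it did without untreated Mcu-/- replicate 4 (edgeR adjusted p = 4.74e-06).

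Hspa8 went the other way from Hspa1a and Hspa1b. It had 36093, 36971 and 37638 normalized counts in Mcu-/- with zymosan, against 52970 to 53640 in WT with zymosan and 37903 to 39457 in untreated WT (log2 fold change against WT with zymosan −0.53, SE 0.10, edgeR adjusted p = 0.000127, and also −0.53, SE 0.02, without untreated Mcu-/- replicate 4). In normalized counts the constitutive HSP70 was thus narrowly below all untreated WT libraries where the inducible ones were highest. At the closest it was 37638 against 37903, a difference that was not tested. Hspe1 (1415 to 1624 against 1641 to 1805, log2 fold change −0.19, edgeR adjusted p = 0.0253) and Hsf1 (416 to 452 against 462 to 510, log2 fold change −0.14, edgeR adjusted p = 0.0352) were slightly lower. The call of Hspe1 was lost without WT zymosan replicate 4 or Mcu-/- column 3 or 5 (edgeR adjusted p = 0.0521 to 0.137), and that of Hsf1 without WT zymosan replicate 1 or 5 or Mcu-/- column 3 or 5 (edgeR adjusted p = 0.0669 to 0.15) and in DESeq2 (adjusted p = 0.0662). Both are counted among the lower genes, of which leaving out column 3 or 5 left 1. For Hsp90aa1 the log2 fold change was 0.01 (SE 0.06) and for Hspd1 0.10 (SE 0.05), and neither passed the test, although Hspd1, at 5218 to 5460 against 4826 to 5167, did not overlap.

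In the zymosan-treated cells, then, 4 of the 10 genes passed as higher in Mcu-/- and 3 as lower, against 31.8% and 30.3% of all genes tested. Without untreated Mcu-/- replicate 4, Bag3 and Hspd1 passed too and the counts were 6 and 3, against 36.4% and 33.7%. Markers of other cells moved with this comparison. The 5 fibroblast markers summed to 44.0 to 52.3 CPM in Mcu-/- with zymosan and 4.66 to 6.63 CPM in WT with zymosan, with Col1a2 the highest and none at 0. The 8 neutrophil markers summed to 0.396 to 0.589 against 3.07 to 5.01 CPM, with Elane, Retnlg and Cxcr2 at 0 in Mcu-/-, and the macrophage markers to 10400 to 10800 against 16100 to 16400 CPM. The part of cell composition in the differences was not tested, and in bulk RNA fewer cells of a type and less RNA per cell cannot be told apart.

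**Figure D3:**
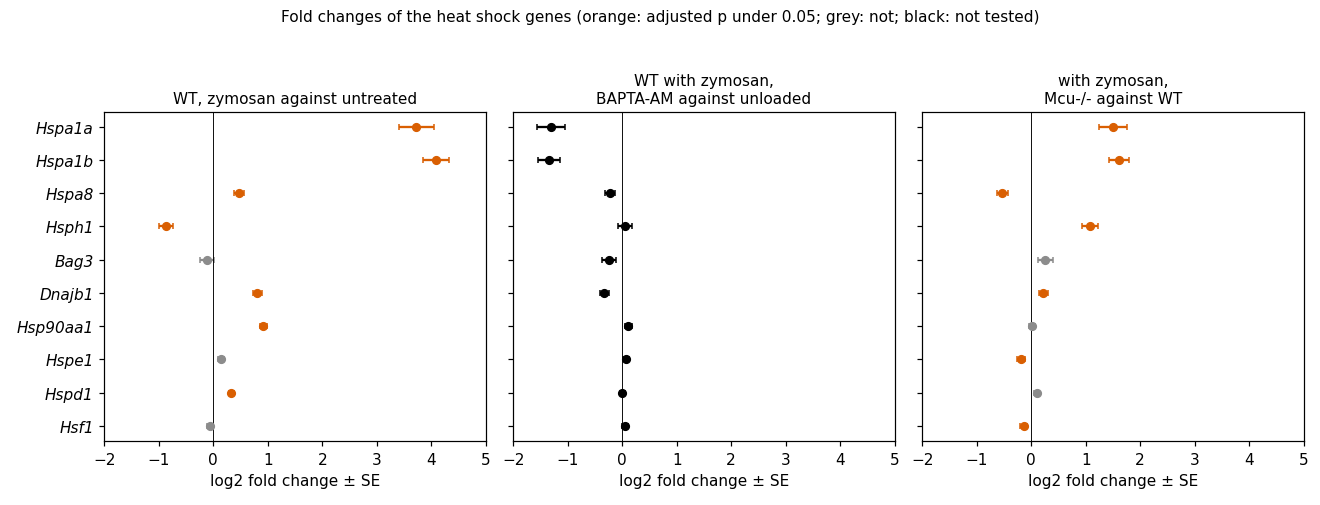
Log2 fold changes with standard errors (horizontal axes, the same scale in each panel) of the 10 genes for zymosan in WT, for BAPTA-AM in WT with zymosan (not tested) and for Mcu-/- against WT with zymosan. Hspa1a and Hspa1b lie near 4, −1.3 and 1.6, whereas Hspa8 and Hsph1 change sign between the outer panels. On scaling by library totals the zymosan values of Hspa8, Hspe1 and Hspd1 drop to −0.02, −0.36 and −0.16.

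Without zymosan, 0 of the 10 genes passed edgeR's test between Mcu-/- and WT, against 0.128% higher and 0.222% lower of all genes, and DESeq2 called 0 as well. At an unadjusted p under 0.05 there was 1, Hsf1. This comparison rests on replicate 4 of the untreated Mcu-/- group. Its normalized counts were 134 for Hspa1b and 103 for Hspa1a, against 42.2 to 47.6 and 19.1 to 44.7 in replicates 1 to 3. It also had 997 for Hsph1 against 561 to 577, 1751 for Bag3 against 943 to 1002, 773 for Dnajb1 against 540 to 567, and 25648 for Hspa8 against 37977 to 40245. Against the mean of untreated WT the log2 ratio of replicate 4 was 1.47 for the pair, 0.669 for Hsph1 and −0.586 for Hspa8, where the ratios of Mcu-/- to WT with zymosan were 1.57, 1.08 and −0.53. Replicate 4 thus departed in the directions of the zymosan-treated Mcu-/- libraries in these genes, but not to their levels. It had 237 normalized counts for the pair, against 3804 to 4175 in Mcu-/- with zymosan. In Hsph1 and Hspa8 it lay beyond those libraries, at 710 to 734 and 36093 to 37638. Its macrophage markers summed to 8560 CPM against 14400 to 14800 in replicates 1 to 3, its fibroblast markers to 28.3 against 1.10 to 2.81 CPM, and its B cell markers to 18.1 against 53.2 to 55.1 CPM. What sets this library apart was not tested.

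Without replicate 4 the sum of Hspa1a and Hspa1b was 72.7 ± 17.1 (n = 3) in untreated Mcu-/- and 85.7 ± 6.76 (n = 4) in untreated WT macrophages, which overlap (log2 fold change −0.24, SE 0.13, edgeR adjusted p = 0.424). Bag3 alone was then called, lower at 943 to 1002 against 1088 to 1174 (log2 fold change −0.24, SE 0.05, edgeR adjusted p = 0.00107), so 0 of 10 were higher and 1 lower against 1.53% and 1.83% of all genes. Hsf1 was at 408 to 450 in all 4 Mcu-/- libraries and at 482 to 542 in WT, without overlap, but did not pass the test (log2 fold change −0.21, SE 0.05, edgeR adjusted p = 0.129).

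Within the Mcu-/- genotype the sum of Hspa1a and Hspa1b rose with zymosan from 114 ± 83.4 (n = 4) to 4009 ± 189 (n = 3), or a log2 change of 5.15 (SE 0.28, edgeR adjusted p = 7.77e-12), and of 5.78 (SE 0.08) without replicate 4. Its exact two-sided permutation p was 0.0571, the smallest that 3 against 4 allow, so this test could not pass 0.05. Dnajb1 (0.91), Hsp90aa1 (0.87) and Hspd1 (0.37, but −0.15 on library totals) rose as well. In all, 5 of the 10 genes rose and 0 fell by edgeR's test, against 34.3% and 39.4% of all genes. DESeq2 and an unadjusted p under 0.05 gave the same counts of 5 and 0. Without replicate 4 it was 7 and 1, against 39.2% and 42.4%, with Hsph1 (log2 fold change 0.35) and Bag3 (0.38) now higher and Hspa8 lower (−0.08). Scaled by library totals, 4 rose and 6 fell, against 16.0% and 68.3%, at a median of all genes of −0.58. Markers of cell types differed here too. Fibroblast markers summed to 1.10 to 28.3 CPM untreated (1.10 to 2.81 in replicates 1 to 3) and 44.0 to 52.3 with zymosan. B cell markers summed to 18.1 to 55.1 and 12.4 to 13.3 CPM, and macrophage markers to 8560 to 14800 and 10400 to 10800 CPM. The part of cell composition was not tested.

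The difference between the zymosan responses of the genotypes was tested as an interaction. It was positive for Hspa1b (log2 difference 1.29, SE 0.34, edgeR adjusted p = 0.00777) and for the sum (1.18, SE 0.38, edgeR adjusted p = 0.0225), but did not pass for Hspa1a alone (1.01, SE 0.45, edgeR adjusted p = 0.0925). Hsph1 (0.97, edgeR adjusted p = 0.000992) and Hspa8 (−0.42, edgeR adjusted p = 0.0187) also differed, so 2 of 10 genes were higher and 1 lower, against 15.2% and 20% of all genes. Without replicate 4 the log2 difference of the sum was 1.82 (SE 0.14, edgeR adjusted p = 6.79e-14). Then 6 were higher, Hspa1a, Hspa1b, Hsph1, Bag3, Dnajb1 and Hspd1, and 2 lower, Hspa8 and Hspe1, against 31.0% and 29.3%. The size of the difference thus depends on the untreated Mcu-/- libraries taken as baseline. For the sum, replicate 4 had 237 normalized counts and replicates 1 to 3 had 61.7, 92.4 and 64.0. Which baseline is right was not tested.

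The other genes of the chaperone network were read from lists that do not count the 10 genes, and their counts in WT with zymosan stand beside 32.4% higher and 36.8% lower of all genes, or 15.7% and 68.5% on library totals. The lists share genes, such as Hspa5, Hyou1, Hspa9 and Hspa4l, so their counts are not independent. With zymosan in WT, 14 of 20 further heat shock response targets rose and 2 fell, with a median log2 fold change of 0.62 beside −0.04 for all genes tested, and 11 rose and 5 fell when scaled by library totals. Sqstm1, an autophagy receptor, went from 8449 to 32303 normalized counts (log2 fold change 1.93), the J-protein gene Dnajb4 rose by a log2 of 1.92 and Hmox1 (heme oxygenase) by 1.47. Of the cytosolic chaperonin TRiC and prefoldin, 11 of 13 genes rose (Cct8 by a log2 of 0.65, Cct3 by 0.57), but scaled by library totals 2 rose and 11 fell, since their median of 0.29 is small beside the shift of all genes. J-proteins were near the shares of all genes, with 13 of 32 higher (Dnajb2 by 2.04, Dnaja2 by 1.66) and 11 lower. Of HSP90 and its co-chaperones 13 of 23 rose, among them the ATPase activator Ahsa1 (1.00), and 6 fell, among them Fkbp5 (−1.35). With library totals those counts were 7 and 21 for J-proteins and 5 and 16 for the HSP90 list.

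Of the other HSP70 and HSP110 genes 5 of 9 rose, with Hspa4l at 0.83 and Hspa5 (BiP) at 0.67, although on library totals 2 rose and 3 fell. Of 13 mitochondrial chaperones and proteases 4 rose and 5 fell, Dnaja3 at −0.86, and on library totals 0 rose and 11 fell. Of the 4 small heat shock protein genes that passed the filter, edgeR, DESeq2 and an unadjusted p under 0.05 each called 0, although on library totals 1 fell. Of the 3 heat shock factor genes Hsf2 fell (log2 fold change −0.23). Of 9 BAG and exchange factor genes 4 rose, among them Bag1 (0.62), and 2 fell, but on library totals 2 rose and 6 fell. ER chaperones and genes of the unfolded protein response had 11 of 22 higher (among them Hspa5 and Xbp1) and 2 lower, but 1 higher and 16 lower on library totals. The largest change of this list was a fall, of Ddit3 (CHOP) from 574 to 347 normalized counts (log2 fold change −0.73, edgeR adjusted p = 0.0334). Immediate-early genes, which respond within minutes to signals, had 16 of 21 higher and 4 lower at a median of 1.88 (14 and 5 on library totals). Without untreated Mcu-/- replicate 4 more passed among the other HSP70 and HSP110 genes (8 rose), the mitochondrial list (6 rose and 5 fell), the BAG and exchange factor genes (6 rose and 2 fell) and the ER genes (16 rose and 4 fell).

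BAPTA-AM called few genes of these lists. Across all genes tested 6.43% were higher and 6.33% lower, or 15.3% and 16.5% without untreated Mcu-/- replicate 4. On library totals it was 13.4% and 4.48%. Of the 20 further heat shock response targets edgeR called 0 higher and 3 lower, as did DESeq2 and an unadjusted p under 0.05. Among the latter were Ubb, a polyubiquitin gene, with 7698 against 10377 normalized counts (log2 fold change −0.43, edgeR adjusted p = 1.25e-05), and Dnaja1, a J-protein gene (−0.35). The list's median was −0.04, beside 0.00 for all genes. Without replicate 4, 3 were higher and 5 lower. Of the other HSP70 and HSP110 genes and of TRiC and prefoldin edgeR called 0. At an unadjusted p under 0.05 there was 1 in each, Hspa13 higher and Cct8 lower, and DESeq2 called the latter. Without replicate 4, 3 of the other HSP70 and HSP110 genes were higher and 1 lower. The 3 ER genes called were higher, among them Herpud1 (0.43), but without replicate 4 it was 10 higher and 3 lower. Of the 32 J-protein genes 2 were higher, with Dnajb9, of the ER, at 0.52, and 1 lower, which turned to 4 higher and 7 lower without replicate 4. Of 21 immediate-early genes 4 were lower, among them Jun (−0.69) and Ier3 (−0.60), and Klf2 was higher (0.76), at a median of −0.29. Without replicate 4, 14 were lower and 2 higher.

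Between Mcu-/- and WT with zymosan, where 31.8% of all genes were higher and 30.3% lower, 11 of the 20 further heat shock response targets were higher and 2 lower (15 and 2 without untreated Mcu-/- replicate 4, where all genes gave 36.4% and 33.7%), with a median log2 fold change of 0.27 beside 0.02 for all genes. Sqstm1 was at 96112 against 32303 normalized counts (log2 fold change 1.57, edgeR adjusted p = 0.000908) and Hmox1 at 47652 against 24353 (0.97). ER chaperones and unfolded protein response genes were higher in 15 of 22 and lower in 2 (17 and 3 without replicate 4), at a median of 0.38: Ddit3 (CHOP) by 1.32, Creld2 by 0.99, Sil1, the exchange factor of BiP, by 0.95, and Hspa5, by 0.77. Mitochondrial chaperones and proteases were higher in 9 of 13 and lower in 1, also without replicate 4, with Afg3l2 at 0.73, Hspa9 (mitochondrial HSP70) at 0.63 and Lonp1 at 0.60. Of the other HSP70 and HSP110 genes 6 of 9 were higher, among them Hyou1 (0.87) of the ER, and Hspa14 was lower (−0.64), with the same counts without replicate 4. The counts of J-proteins (12 of 32 higher and 10 lower) were not far from the shares of all genes. Immediate-early genes had 7 of 21 higher, Klf2 by 1.84, and 3 lower, or 10 and 6 without replicate 4. With all libraries their higher count was near the share of all genes and their lower count below it. BAG and exchange factor genes had 4 of 9 higher (and 1 lower without replicate 4). TRiC and prefoldin had 3 of 13 higher and 5 lower, and HSP90 co-chaperones 5 of 23 in either direction (8 and 6 without replicate 4). Of the 4 small heat shock protein genes tested 1 was higher, Hspb1 (2.07), and 2 were lower, Cryab (−2.24) and Hspb6 (−0.705), each averaging under 10 CPM in both groups and named after their values were seen. Hsbp1, which encodes a small protein that binds HSF1, was lower (−0.64, edgeR adjusted p = 4.75e-06) and Hsf2 higher (0.60, edgeR adjusted p = 1.01e-06). Scaling by library totals left the medians of the heat shock response targets, the ER genes and the mitochondrial ones positive, with 11 and 3, 15 and 4, and 9 and 1 calls.

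**Figure D4:**
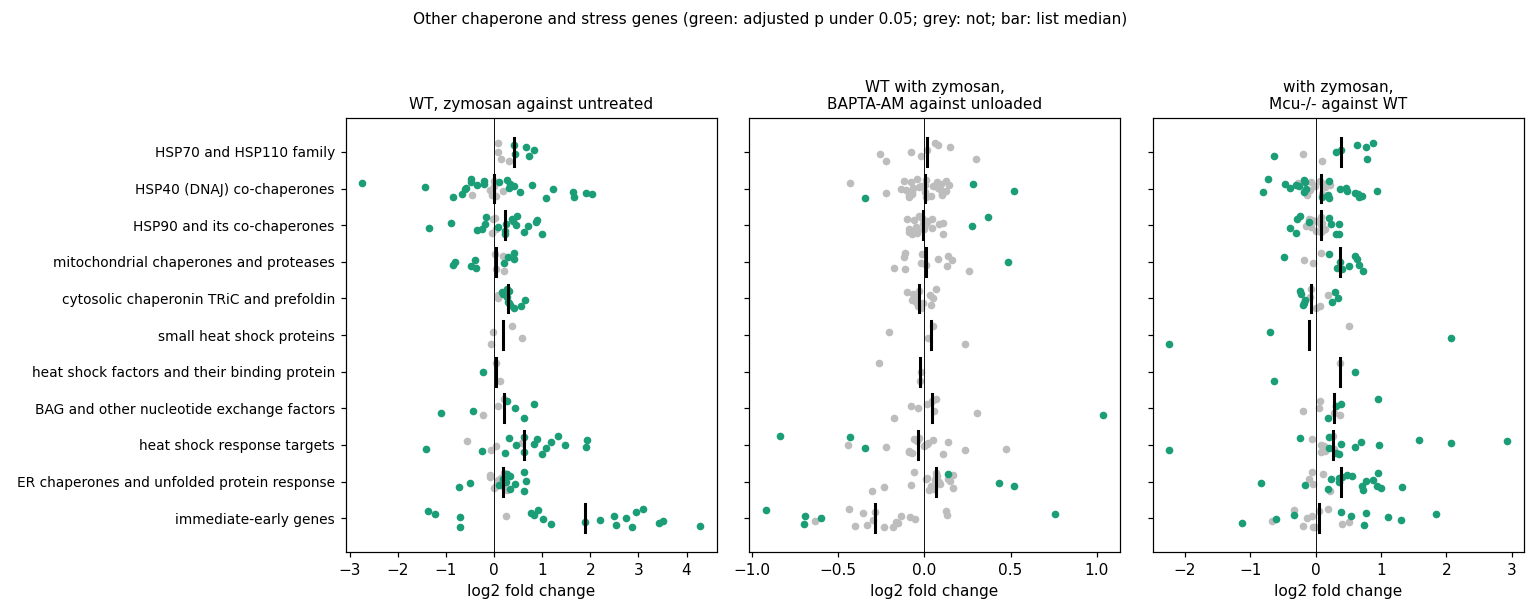
Log2 fold changes (horizontal axes, a separate scale per panel) of the chaperone and stress genes other than the 10, by list, with the median of each list as a bar. Medians of 0.62 and 1.88 for heat shock response targets and immediate-early genes stand out with zymosan in the left panel, whose values sit lower on library totals (median of all genes −0.54), and the BAPTA-AM panel holds few called genes.

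The genes whose pattern was most like that of the Hspa1a and Hspa1b sum were ranked by Pearson's r over the 20 libraries (log2 CPM, 8915 genes averaging 5 CPM or more, no p given since the libraries fall into 5 groups). Of genes outside the 10, the highest were Abr (r = 0.993), Apaf1, the scaffold of the apoptosome (0.993), Mmp13, a collagenase (0.992), Chmp1b, of the ESCRT-III machinery (0.992), Mtpn (0.992), Pcdh7, a protocadherin (0.991), Orai2, of the Orai Ca2+ channel family (0.990), and Appbp2 (0.990). The list depends on untreated Mcu-/- replicate 4: without it Apaf1 moved from rank 4 to 12, Orai2 from 9 to 14 and Appbp2 from 10 to 23, whereas Mmp13 stayed at 5 and Pcdh7 came at 3. They differed in scale. Mmp13 had log2 fold changes of 4.31 with zymosan, −1.22 with BAPTA-AM and 1.89 in Mcu-/- against WT with zymosan, of a size with Hspa1b at 4.09, −1.34 and 1.61, whereas those of Mtpn were 0.50, −0.12 and 0.24. Among the heat shock genes themselves Dnajb1 ranked 12 (r = 0.989), Hspd1 637 (0.933) and Hsp90aa1 1322 (0.876), while Hspa8 (0.346), Hspe1 (0.203), Bag3 (0.127), Hsf1 (−0.162) and Hsph1 (−0.252) came at 3621 or later. Dnajb1 was thus the gene of the 10 that followed the pair most closely, at a far smaller range.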

How the data were processed

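RNA of 20 macrophage libraries was measured by RNA-seq. The authors trimmed reads with cutadapt, mapped them to mm10 with STAR, counted them per gene with HTSeq and deposited whole-number counts without normalization. STAR and DESeq2 are named without versions in the submitters' processing notes, and read length and the HTSeq settings for strand and shared reads are not given in the sources used here. The 25 repeated symbols were kept as separate entries.

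The count tests used edgeR 4.0.16 in R 4.3.3 (filterByExpr, TMM, quasi-likelihood test, 20 libraries in 1 fit, Benjamini-Hochberg over all genes, adjusted p under 0.05). Normalized counts are CPM of the TMM-scaled library times the mean library size of 20.6 M, and levels between genes are per kb of GENCODE M21 exon. The 3 Mcu-/- zymosan columns are numbered 3 to 5 but the labels 1 to 3, so they were assigned by group only. The fit was tested on simulated data. Promoter sequences are RefSeq's on GRCm38.

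The 10 genes, the lists and the tests were chosen with earlier results of these data known. Named list genes were, per list and comparison, at most 4 called genes with the largest fold change that reached 10 CPM in either group's mean, and 8 genes were named for likeness. A gene that this rule named is not reported here. Alternatives were DESeq2 1.42.0 and its size factors, library totals, no filter, groups fitted alone, a replicate block and leaving out each library.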

Additional observations from a re-analysis of the deposited data

Results flagged for a closer look

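Each gene and the sum of Hspa1a and Hspa1b were tested in each group of 4 or 5 libraries for a library far from the rest (Dixon's ratio), 44 groups in all, of which chance flags about 1 in 20. There were 7, and 6 of them were untreated Mcu-/- replicate 4: its normalized counts were 134 for Hspa1b, 25648 for Hspa8, 997 for Hsph1, 773 for Dnajb1, 1261 for Hspe1 and 1751 for Bag3. The other was untreated WT replicate 4, with 542 for Hsf1. The difference of the zymosan responses between the genotypes passed the test for Hspa8 (log2 difference −0.42), Hsph1 (0.97), Hspa1b (1.29) and the sum of Hspa1a and Hspa1b (1.18), by an interaction term that includes that untreated Mcu-/- library. The cause of these differences was not tested.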

How the results depend on the processing

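The 29 other settings gave 2324 values, of which 2235 kept their direction and their side of the threshold. Scaled by library totals, 5 genes (not 1) were lower with zymosan in WT and 6 (not 0) in Mcu-/-. The log2 fold change turned negative for Hspa8 (−0.02), Hspe1 (−0.36) and Hspd1 (−0.16) in WT, for Hspa8 (−0.48), Hsph1 (−0.41), Hspe1 (−0.50), Hspd1 (−0.15), Hsf1 (−0.52) and Bag3 (−0.40) in Mcu-/-, and for Hspa8 (−0.19), Hspe1 (−0.22) and Hspd1 (−0.10) with BAPTA-AM against untreated. Without untreated Mcu-/- replicate 4, 2 genes were lower with zymosan in WT (2 also when groups were fitted alone, with or without that library), 1 in Mcu-/-, and 1 was lower in untreated Mcu-/-, Bag3 at −0.24. Hspa8 then had −0.08 with zymosan in Mcu-/-, and the difference of responses was called positive for 6 genes and negative for 2. In fits of the groups alone without that library, chosen after seeing the data, these were 5 and 2, with 1 gene lower in each of the other comparisons, Bag3 at −0.24 and Hspa8 at −0.08. For Hspa1a alone the difference of responses was 1.01, which did not pass. Leaving out 1 library at a time, 3 to 6 genes were higher and 1 to 3 lower in Mcu-/- with zymosan, 1 lower only without Mcu-/- column 3 or 5, and the lower counts were 1 to 2, 0 to 1 and 0 to 1 for zymosan in WT, untreated Mcu-/- and zymosan in Mcu-/-. Positive differences of responses numbered 2 to 6 and negative ones 1 to 2. Bag3 in untreated Mcu-/- ran from −0.24 to 0.11 and Hspa8 with zymosan in Mcu-/- from −0.08 to 0.11. The log2 fold change of the sum ran from 3.93 to 4.01 with zymosan and −1.38 to −1.26 with BAPTA-AM. It ran from 1.54 to 1.61 for Mcu-/- with zymosan and 0.98 to 1.82 for the difference of responses. DESeq2 called Hspe1 with zymosan (0.17) and not Hsf1 in Mcu-/- (−0.14).

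The replicate numbers did not pair the libraries: the deviations of same-numbered libraries correlated at −0.055 to 0.061, those of others at −0.083 to 0.093. A fit with the replicate block on the 17 numbered libraries called 6 genes higher and 1 lower with zymosan in WT, with a log2 fold change of the sum of 3.96 (2.62 with BAPTA-AM against untreated, −1.34 against unloaded, 0.30 for untreated Mcu-/-), and Hspa8 with BAPTA-AM against untreated no longer passed (0.24). The Mcu-/- zymosan columns carry no number of the labels and could not enter it. Depth limits Hspa1a without zymosan, at 24 to 48 reads per WT library.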
